A study of Rattus norvegicus with 33 samples.

Results

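The miRNAs rno-miR-146a-5p, rno-miR-146b-5p and rno-miR-155-5p, written below without the species prefix, were followed in rat plasma after chemical liver injury and after dexamethasone. They were chosen by name, and they are 3 of the 264 mature miRNAs listed in all 6 deposited count tables and of the 462 listed in any. The study profiled plasma small RNA over time in models of hepatocellular injury, cholestasis and steatosis. All rats were male Sprague-Dawley, obtained at 6 weeks of age, with 5 per group, and every compound was given by gavage. Acetaminophen (APAP, 1500 mg/kg after 12 h of fasting) and thioacetamide (TAA, 100 mg/kg), both in 0.5% carboxymethylcellulose, were the hepatocellular models, with plasma at 3, 6, 12 and 24 h. The cholestasis models were α-naphthylisothiocyanate (ANIT, 150 mg/kg in corn oil) and 4,4'-methylenedianiline (MDA, 250 mg/kg in 0.5% carboxymethylcellulose), sampled at 3, 6, 12, 24 and 48 h. The steatosis models were carbon tetrachloride (CCl4, 300 mg/kg daily, Day 1, 3 and 5) and dexamethasone (DEX, 15 mg/kg daily, Day 1, 2 and 3), both in corn oil. Vehicle rats received the solvent alone, and CCl4 and DEX shared 1 vehicle group. DEX is the glucocorticoid against which the necrotic models, APAP and TAA, are set here.

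Both miR-146 miRNAs are induced in stimulated monocytes, miR-146a through NF-κB, and they repress IRAK1 and TRAF6, adaptors of Toll-like and interleukin-1 receptor signalling, which makes them brakes on inflammation. miR-155, processed from the BIC transcript, is induced in activated macrophages and lymphocytes and represses SHIP1 and SOCS1, inhibitors of that response. Glucocorticoids restrain NF-κB signalling, and miR-155 is among the miRNAs they lower in stimulated macrophages.

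The mature sequences show why the 2 miR-146 rows have to be read together. They were taken from RefSeq on build GRCr8, where all 3 names matched, and are written 5′ to 3′ with the seed, bases 2 to 8, in capitals.
miR-146a-5p: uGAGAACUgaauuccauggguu
miR-146b-5p: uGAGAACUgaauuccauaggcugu
miR-155-5p: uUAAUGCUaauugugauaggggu
Counted from the 5′ end, miR-146a-5p and miR-146b-5p share their first 17 bases and 20 of 22 compared positions. The differences from miR-146a-5p to miR-146b-5p are G18A and U21C, and miR-146b-5p is 2 bases longer. Their seed GAGAACU belongs to these 2 of 693 mature rat miRNAs in the reference, and the seed UAAUGCU to miR-155-5p alone. The genes lie on different chromosomes, with miR-146a-5p at chr10:28350053-28350074 on the minus strand, miR-146b-5p at chr1:255144874-255144897 on the plus strand and miR-155-5p at chr11:37261117-37261139 on the plus strand. The sources used here do not say how reads that end before base 18 were assigned, so the split between the 2 miR-146 rows is uncertain. The opposite arms were nearly absent, with 1 read of miR-146a-3p, 3 reads of miR-146b-3p and 1 read of miR-155-3p in all libraries together.

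The tables hold 29 libraries, 24 treated and 5 vehicle, with 14176 (MDA vehicle) to 383330 (TAA 24 h) miRNA reads. Each group has 1 library, and the sources used here do not say whether it comes from 1 rat or from pooled rats. In ANIT 4 groups have 2 labelled samples and 1 column. The shared vehicle appears in the CCl4 table and in the DEX table with the same total. Its 2 columns differ in 36 miRNAs by at most 4 reads, and were counted once. Intervals on a single library cover counting error only, and PCR copies are not independent molecules. The hepatocyte list (both arms of miR-122, miR-192-5p and miR-194-5p) took 1.57% to 4.14% of reads in vehicle libraries and 21.5% to 71.3% in the APAP and TAA libraries. A share of reads therefore has to be read beside a scaled value, and no spike-in gives absolute concentrations. In bulk plasma, release from fewer cells and less RNA released per cell cannot be told apart.

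In vehicle plasma miR-146a-5p and miR-146b-5p were of middling abundance and miR-155-5p was close to the limit of detection. miR-146a-5p stood at 4435 reads per 1000000 miRNA reads (RPM) in the APAP vehicle, 3811 in the TAA vehicle, 4670 in the ANIT vehicle, 3245 in the MDA vehicle and 2964 in the vehicle of CCl4 and DEX, a mean of 3825 ± 736 (SD, n = 5). miR-146b-5p stood in the same order at 2822, 3448, 2901, 1764 and 1488 RPM, a mean of 2485 ± 826 (SD, n = 5). miR-146a-5p ranked between 27 and 35 by reads in these libraries, and miR-146b-5p between 33 and 46. miR-155-5p had 2, 1, 6, 5 and 32 reads in the same order, which is 137 ± 130 RPM (SD, n = 5). The MDA vehicle gave the highest share of miR-155-5p, 353 RPM, from 5 reads in the shallowest library (95% interval 115 to 823).

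The spread between vehicle libraries differed among the 3 miRNAs. TMM scaling is meant to correct for the few miRNAs that fill a library, and takes most miRNAs as unchanged. With all libraries scaled together by TMM, the highest vehicle value was 1.81 times the lowest for miR-146a-5p. It was 2.07 times the lowest for miR-146b-5p and 11.5 times for miR-155-5p. The median over 126 miRNAs was 2.43, with quartiles of 2.02 and 3.95. miR-155-5p was among these 126 only through 32 reads in the vehicle of CCl4 and DEX. Its range set 1 read in the TAA vehicle against 5 in the MDA vehicle, a ratio of 0.0866 (95% interval 0.00183 to 0.774). The part of counting error in that range was not tested. A ratio between 2 libraries was called when it was at least 2 or at most 0.5 and its exact 95% counting interval excluded 1. Of the 10 pairs of vehicle libraries, none was called for miR-146a-5p, 1 for miR-146b-5p (ANIT over MDA, 2.07) and 4 for miR-155-5p, against 4.76% to 31.7% of all 126 miRNAs per pair. The pair called for miR-146b-5p had 15.1% of miRNAs called. The 4 pairs called for miR-155-5p were the APAP vehicle below those of MDA (7.94% of miRNAs called) and of CCl4 and DEX (12.7%), and the TAA vehicle below those of MDA (19.8%) and of CCl4 and DEX (31.7%). In these pairs the lower library held 2 reads (APAP vehicle) or 1 read (TAA vehicle). In the other 5 pairs 4.76%, 8.73%, 18.3%, 23.8% and 24.6% of miRNAs were called. The vehicle libraries belong to different models and solvents, so this spread is not that of like-treated rats.

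**Figure D1:**
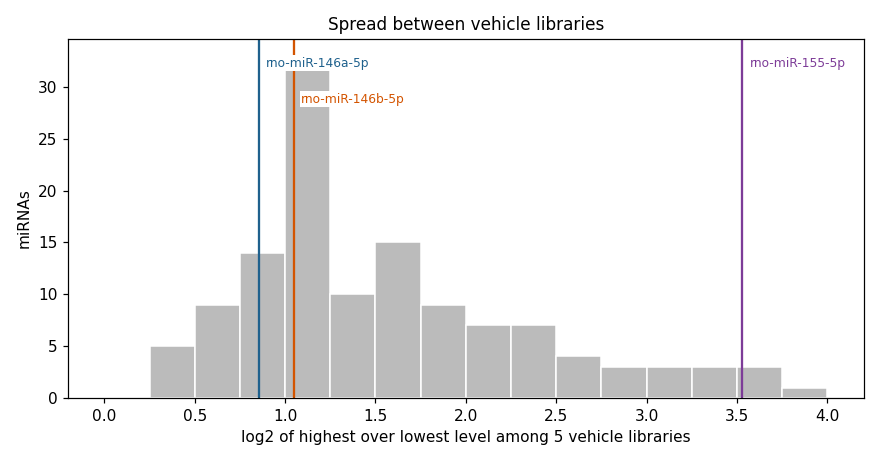
Histogram of the spread of 126 miRNAs over the 5 vehicle libraries, as log2 of the highest over the lowest TMM-scaled level (x axis) and number of miRNAs (y axis). The lines mark miR-146a-5p (1.81-fold) and miR-146b-5p (2.07-fold), below the median of 2.43-fold, and miR-155-5p (11.5-fold), which only 3 miRNAs exceed. The value for miR-155-5p rests on 1 read in the TAA vehicle and 5 in the MDA vehicle.

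After APAP the shares of the 2 miR-146 miRNAs both stood lower at each later time to 12 h and parted at 24 h. miR-146a-5p stood at 5668, 2156, 631 and 2779 RPM at 3, 6, 12 and 24 h. miR-146b-5p stood at 3055, 1738, 489 and 250 RPM at the same times. Both shares were lower at 12 h than at 6 h, and at 24 h miR-146a-5p was higher again while miR-146b-5p was lower still. They did not run together at 3 and 6 h once scaled by TMM within the model, where miR-146a-5p was at 1.46 and 1.16 times vehicle and miR-146b-5p at 1.23 and 1.47. Under that scaling the 24 h library held 0.255 of the vehicle level of miR-146b-5p (95% interval 0.185 to 0.348), a fall of 3.92-fold, and 1.81 times that of miR-146a-5p (1.54 to 2.12), which did not reach the 2-fold needed for a call. The direction for miR-146a-5p depended on the scaling, since it stood at 0.627 of vehicle by total counts, at 1.64 when TMM took in all libraries, and at 2.04, a call, with TMM on all listed miRNAs. At 3, 6 and 12 h the ratios to vehicle lay between 0.749 and 1.46 for miR-146a-5p and between 0.912 and 1.47 for miR-146b-5p, and none was called, while 23.1%, 24.6% and 46.2% of all measured miRNAs were called in either direction. In the 24 h library 32.3% of measured miRNAs were called lower and 41.5% higher. The share called in either direction reached 73.8% in APAP and 79.7% in TAA libraries. That TMM corrects libraries with so many calls was assumed and not tested. The summed share of the leukocyte list (miR-142, miR-223, miR-150, miR-342 and miR-181 arms) was 1.29% in the APAP vehicle and 0.0940% at 24 h, and its part in these values was not tested.

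After TAA the shares of both miR-146 miRNAs were lower at each later time. miR-146a-5p stood at 1441, 935, 435 and 256 RPM at 3, 6, 12 and 24 h, and miR-146b-5p at 1545, 634, 281 and 133. By share all 4 libraries lay below every vehicle library for miR-146a-5p, and those from 6 h on did for miR-146b-5p. Scaled by TMM over all libraries, 4 of 4 lay below for miR-146a-5p, at 6 h only just (1598.2 against 1599.7 counts per 1000000 scaled reads), and 2 of 4 for miR-146b-5p. With TMM over all libraries miR-146a-5p was also not lower at 6 h (0.842 of vehicle) than at 3 h (0.761). With TMM scaling miR-146b-5p was called lower at 12 h (ratio 0.380, 0.269 to 0.531) and at 24 h (0.136, 0.0958 to 0.191), and miR-146a-5p at 24 h (0.237, 0.180 to 0.310). These are falls of 7.35-fold for miR-146b-5p and 4.23-fold for miR-146a-5p at 24 h. Of all measured miRNAs 10.6% were called lower at 3 h, 8.13% at 6 h, 32.5% at 12 h and 35.8% at 24 h, so the calls came where about 1 in 3 miRNAs was called lower. The summed share of the leukocyte list moved with them, from 1.60% in the TAA vehicle to 0.0243% at 24 h, and that of the red cell list from 5.01% to 0.0840%. The part of blood cell RNA in the fall was not tested.

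**Figure D2:**
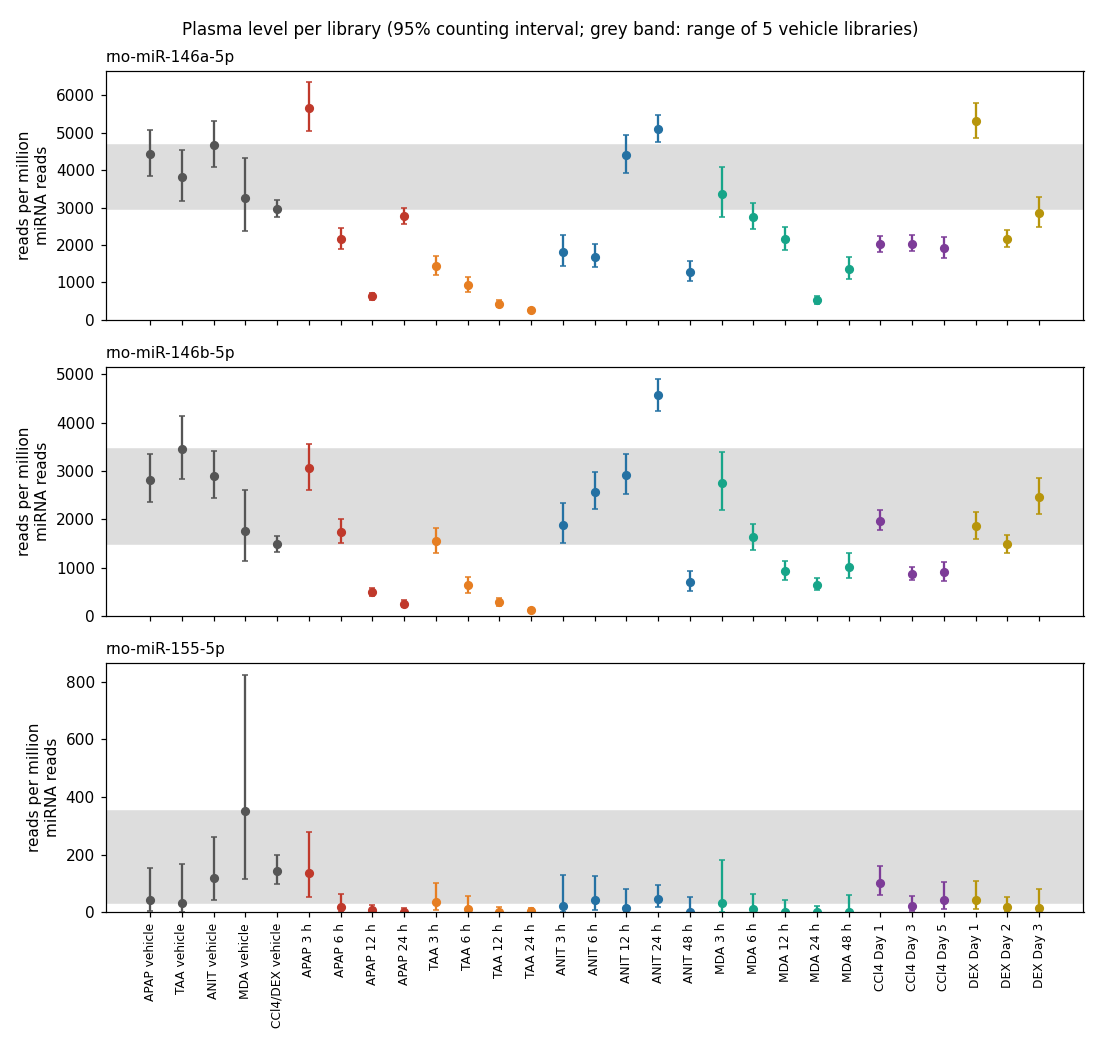
RPM of each miRNA (y axes) in the 29 libraries (x axis), with exact 95% counting intervals and the range of the 5 vehicle libraries in grey. The TAA libraries descend to 256 (miR-146a-5p) and 133 (miR-146b-5p) at 24 h, and miR-155-5p is near 0 in most treated libraries.

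In DEX plasma neither miR-146 miRNA was called at any day. miR-146a-5p stood at 5304, 2171 and 2864 RPM on Day 1, 2 and 3, and miR-146b-5p at 1856, 1481 and 2457. Against the shared vehicle these were TMM-scaled ratios of 1.83 (1.62 to 2.05), 0.947 and 1.06 for miR-146a-5p and of 1.278, 1.29 and 1.82 (1.50 to 2.19) for miR-146b-5p. Each thus had 1 day at which it was close to, but below, 2-fold above vehicle, Day 1 for miR-146a-5p and Day 3 for miR-146b-5p. On Day 1, 2 and 3, 31.3%, 29.8% and 35.1% of measured miRNAs were called in either direction.

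The necrotic libraries at 24 h and the glucocorticoid library of Day 1 were set side by side as the nearest labelled times. The labels give DEX a day and no hour, so the times since dosing may differ. miR-146b-5p was at 0.255 of its vehicle in APAP, 0.136 in TAA and 1.278 in DEX. miR-146a-5p was at 1.81, 0.237 and 1.83. The APAP and TAA libraries thus lay on the same side of vehicle for miR-146b-5p and, with TMM scaling, on opposite sides for miR-146a-5p (both below with total counts). In an edgeR quasi-likelihood fit of the 24 h, Day 1 and vehicle libraries alone, miR-146b-5p was lower in the hepatocellular models than in vehicle by a log2 difference of -2.11 (SE 0.52, Benjamini-Hochberg adjusted p = 0.00138) and lower than in DEX by -1.81 (SE 0.65, adjusted p = 0.0232). For miR-146a-5p these differences were 0.05 (95% interval -1.11 to 1.21, adjusted p = 0.927) and -0.53 (-2.20 to 1.13, adjusted p = 0.607). In the same fit 73.2% of 149 miRNAs were called between hepatocellular and vehicle (38.9% as lower) and 55.7% between hepatocellular and DEX (30.2% as lower), so a call was the common outcome there. It was run as an alternative to the fit over all times, on 11 libraries. APAP and TAA were joined as 1 group, and of its 5 residual degrees of freedom 4 came from the vehicle libraries, 1 from the difference between APAP and TAA, and 0 from DEX. The SEs and p-values therefore measure mostly the spread of vehicle libraries, which edgeR pools in part over all miRNAs tested. The lone DEX library was assumed to vary like the others.

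Over the whole time courses no difference was called for either miR-146. The edgeR quasi-likelihood fit of all 29 libraries let the times of a treatment stand in for replicates, so its spread holds the change with time and its p-values do not measure the spread between rats. miR-146a-5p differed between hepatocellular and vehicle libraries by a log2 difference of -0.27 (95% interval -0.99 to 0.45, adjusted p = 0.552) and miR-146b-5p by -0.35 (-1.11 to 0.41, adjusted p = 0.453). Between DEX and vehicle the differences were -0.0029 (-0.93 to 0.93, adjusted p = 0.995) and -0.18 (-1.16 to 0.80, adjusted p = 0.904). Directly between hepatocellular and DEX they were -0.27 (-1.12 to 0.58, adjusted p = 0.665) and -0.17 (-1.07 to 0.72, adjusted p = 0.792). None of these intervals shows equal levels, and several reach past 2-fold lower. Of 161 miRNAs tested, 38.5%, 2.48% and 24.2% were called in these comparisons, with median log2 differences of -0.19, -0.01 and 0.12. Taken singly against vehicle, no treatment had a call for either miR-146, beside 19.3% of miRNAs called for APAP, 37.3% for TAA, 13% for ANIT, 29.8% for MDA and 4.35% for CCl4. Without composition scaling the hepatocellular difference became -1.39 for miR-146a-5p (adjusted p = 0.0175) and -1.40 for miR-146b-5p (adjusted p = 0.0325), beside a median over all miRNAs of -1.37.

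**Figure D3:**
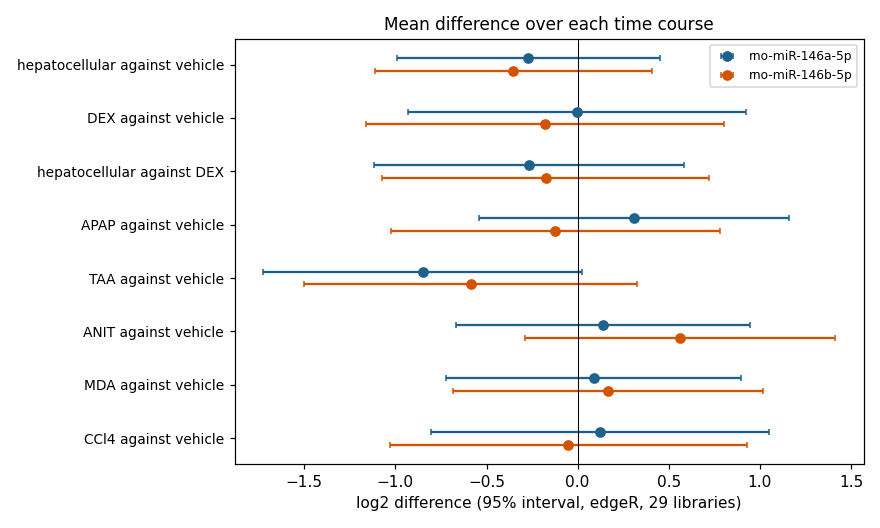
Log2 difference of each contrast from the edgeR fit of all 29 libraries (x axis, with 95% intervals) for miR-146a-5p and miR-146b-5p, by contrast (y axis). Every interval crosses 0, and TAA against vehicle for miR-146a-5p reaches lowest, at -0.85 (-1.72 to 0.02).

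miR-155-5p could not carry the comparison of necrosis with glucocorticoid. It had 110 reads in all 29 libraries, none in 6 of them and more than 3 in 9. In APAP it had 7, 2, 2 and 0 reads at 3, 6, 12 and 24 h, and in TAA 3, 1, 0 and 1, beside 2 and 1 reads in their vehicles, so vehicle and treated libraries alike sat at or near the floor of 3 reads. In DEX it had 4, 3 and 1 reads on Day 1, 2 and 3 beside 32 in the shared vehicle. The vehicle was the one library of the DEX table in which it reached the 20 reads needed to count as measured, so it was admitted by the group where it is high, and the calls are given as a description. All 3 DEX libraries were called lower than that vehicle, with TMM-scaled ratios of 0.304 (0.0781 to 0.857), 0.163 (0.0319 to 0.521) and 0.112 (0.00276 to 0.673), where 16%, 12.2% and 15.3% of measured miRNAs were called lower. Set against the spread of the vehicle libraries, none of these was called against all 5, where 0.763%, 3.82% and 6.87% of miRNAs were called lower. Day 1 (42.2 RPM) lay within the vehicle range of 30.2 to 353, and Day 2 (17.8) and Day 3 (14.5) below it.

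CCl4 shares its vehicle library with DEX, and there miR-155-5p had 18, 4 and 4 reads on Day 1, 3 and 5, with ratios of 0.844, 0.378 (0.0971 to 1.07) and 0.790 and no call, beside 15.2%, 37.1% and 34.8% of miRNAs called in either direction. In MDA it had 1, 1, 0, 0 and 0 reads at 3, 6, 12, 24 and 48 h beside 5 in vehicle, and in ANIT 1, 3, 1, 7 and 0 beside 6. With 3 reads in place of 0, and the vehicle's 5 reads taken as exact, the MDA libraries at 12, 24 and 48 h were at least 6.34-fold, 8.48-fold and 3.78-fold lower than the MDA vehicle. Intervals that also hold the counting error of those 5 reads reach down to 3.49-fold, 4.66-fold and 2.08-fold. miR-155-5p missed the fit's minimum of 10 reads in 3 libraries. With no read minimum, 264 miRNAs were tested and the edgeR log2 difference was -1.79 for hepatocellular against vehicle (95% interval -3.23 to -0.35, adjusted p = 0.0566), -2.04 for DEX against vehicle (-3.92 to -0.17, adjusted p = 0.303) and 0.26 for hepatocellular against DEX (-1.60 to 2.11, adjusted p = 0.873). In these 3 comparisons 27.7%, 0% and 14.8% of miRNAs were called by edgeR, and for DEX against vehicle 36 of 264 had an unadjusted p under 0.05. For MDA against vehicle it was -3.53 (SE 1.00, adjusted p = 0.0130), where 19.3% of miRNAs were called, and with the own vehicle as a block -4.75 (adjusted p = 0.192), so that the call was lost. MDA was the only single treatment called in this edgeR fit. The others were APAP (-1.42, adjusted p = 0.269), TAA (-2.15, 0.0820), ANIT (-1.53, 0.236) and CCl4 (-0.25, 0.987). Of the 46 vehicle reads of miR-155-5p, 32 came from the vehicle of CCl4 and DEX. The difference between hepatocellular and vehicle was past the threshold without 1 of 5 libraries: APAP 3 h (adjusted p = 0.0159), TAA 3 h (0.0218), the TAA vehicle (0.0412), ANIT 6 h (0.0490) or ANIT 48 h (0.0492). It was also past it with total counts (-2.84, adjusted p = 0.00973), and was 0.14 with the own vehicle as a block (adjusted p = 0.95). The share of all miRNAs called in these settings with no read minimum is not given here, so these calls are a description only. In the fit with the read minimum, 47.2% of miRNAs were called lower with total counts.

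In the cholestasis models the miR-146 pair took different courses. After ANIT miR-146a-5p stood at 1821, 1693, 4409, 5112 and 1277 RPM at 3, 6, 12, 24 and 48 h, and miR-146b-5p at 1890, 2575, 2920, 4564 and 708. Both shares were highest at 24 h and lowest at 48 h, while with TMM within the model both were lowest at 3 h (0.391 of vehicle for miR-146a-5p and 0.653 for miR-146b-5p, beside 0.779 and 0.695 at 48 h). With that scaling the 24 h library was the one treated library in which a miR-146 was called higher, miR-146b-5p at 2.10 times vehicle (1.75 to 2.53), where 26.3% of miRNAs were, with miR-146a-5p at 1.46 (1.26 to 1.70). With total counts the ratio of miR-146b-5p was 1.57 and not called. At 3 h miR-146a-5p was called lower (0.391, 0.299 to 0.506), as were 19.5% of miRNAs, but not with TMM on all listed miRNAs (0.594). From 6 h to 48 h no miR-146 was called lower, beside 23.7%, 17.8%, 24.6% and 26.3% of miRNAs.

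After MDA miR-146a-5p stood at 3370, 2753, 2154, 527 and 1351 RPM, and miR-146b-5p at 2748, 1625, 925, 647 and 1021. Both shares were lowest at 24 h, but with TMM scaling only miR-146a-5p was called lower there (0.393, 0.273 to 0.573), among 33.7% of miRNAs (27.4%, 29.5%, 27.4% and 29.5% at 3, 6, 12 and 48 h), and miR-146b-5p was at 0.889 (0.572 to 1.43). The call for miR-146a-5p was lost with TMM over all libraries (0.623) and with TMM on all listed miRNAs (0.622). With TMM over all libraries miR-146b-5p was called higher at 3 h (2.43) and 6 h (2.31) and miR-146a-5p at 6 h (2.13), and the authors' deposited signal put miR-146b-5p at 2.19 times vehicle at 3 h. The share of all miRNAs called higher with these scalings is not given here, so these values are a description only. The MDA vehicle held 46 and 25 reads of the pair, which sets the width of these intervals. After CCl4 miR-146a-5p stood at 2016, 2039 and 1910 RPM and miR-146b-5p at 1971, 874 and 904. The TMM-scaled ratios of CCl4 ran from 0.810 to 1.78 for miR-146a-5p and from 1.46 to 1.67 for miR-146b-5p, with no call.

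**Figure D4:**
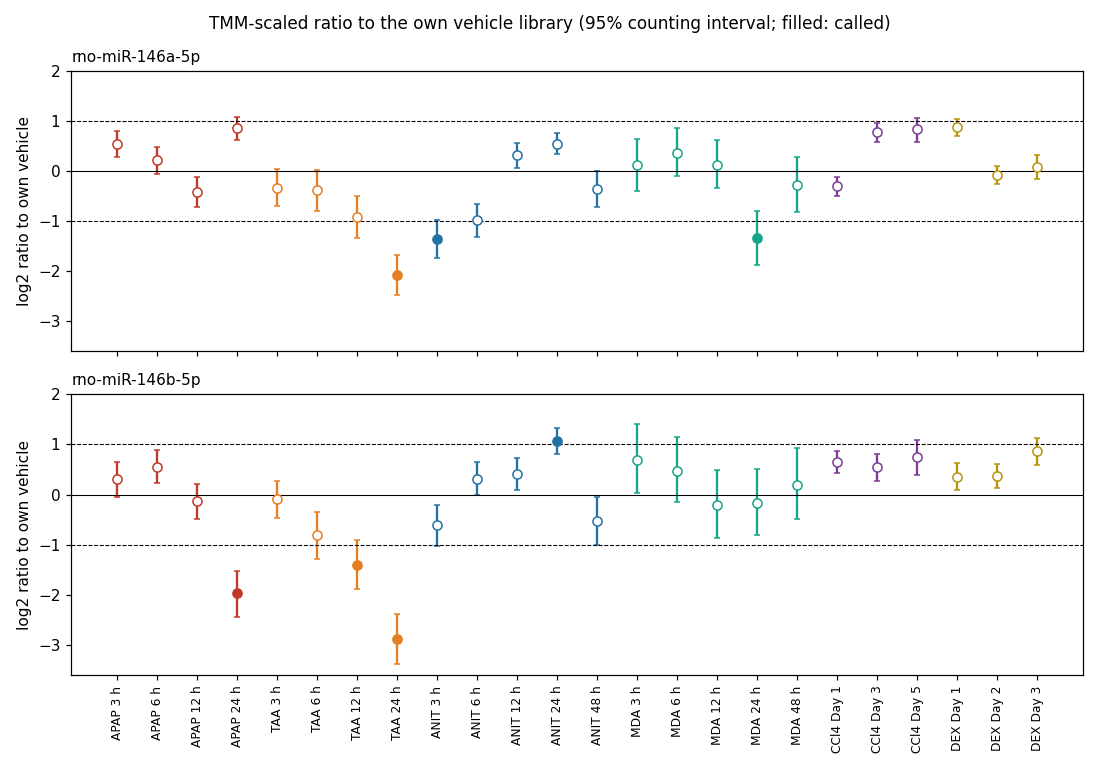
Log2 of the TMM-scaled ratio of each treated library to its own vehicle (y axes) for miR-146a-5p and miR-146b-5p in 24 treated libraries (x axis), with exact 95% counting intervals. Filled points are called, dashed lines mark 2-fold, and the lowest point is miR-146b-5p in TAA at 24 h (-2.87).

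Counted over the 24 treated libraries, miR-146a-5p was called lower than its own vehicle in 3 and higher in 0, and miR-146b-5p lower in 3 and higher in 1. Over all 2866 pairs of a measured miRNA and a treated library, 20.5% were called lower and 20.1% higher. With total counts 11 libraries were called lower for miR-146a-5p and 8 for miR-146b-5p, beside 41.4% of all pairs. miR-155-5p was counted in the CCl4 and DEX tables only, where it reached 20 reads through the shared vehicle. Against all 5 vehicle libraries, with TMM over all libraries, 4 of these calls remained: miR-146b-5p lower in APAP and TAA at 24 h, miR-146a-5p lower in TAA at 24 h, and miR-146b-5p higher in ANIT at 24 h. Under that rule 23.1% of miRNAs were called lower in APAP at 24 h, 26.8% lower in TAA at 24 h and 15.3% higher in ANIT at 24 h. All 4 calls were at 24 h, and none was in DEX or CCl4. In DEX 0.763%, 3.82% and 6.87% of miRNAs were called lower on Day 1, 2 and 3. No lower call was thus the common outcome there. The shares for CCl4 and for the other times are not given here, so the lack of calls there is not read as a result.

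The ratio of the 2 miR-146 miRNAs within a library needs no scaling between libraries. It was examined after the values had been seen. The vehicle libraries held 1.57, 1.11, 1.61, 1.84 and 1.99 reads of miR-146a-5p per read of miR-146b-5p in the order APAP, TAA, ANIT, MDA and the vehicle of CCl4 and DEX. The APAP 24 h library held 11.1 (95% interval 8.54 to 14.8), from 668 and 60 reads. The other 28 libraries ran from 0.657 (ANIT 6 h) to 2.86 (DEX Day 1), so that 1 library stood apart from all others. The TAA 24 h library, in which both miRNAs were low, held 1.92 (1.36 to 2.75). As a mean log2 ratio over libraries, hepatocellular differed from vehicle by 0.21 (exact two-sided permutation test, p = 0.945, 8 against 5 libraries) and from DEX by 0.12 (exact p = 0.909, 8 against 3), with adjusted p = 0.945 for both over 3 comparisons. Without the APAP 24 h library these differences were -0.16 and -0.25. Here too the times of a treatment stood in for replicates, and the vehicle libraries differed in model and solvent. The p-values of these permutation tests therefore do not measure the spread between rats. The APAP 24 h divergence is a result of 1 library and has no replicate.

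**Figure D5:**
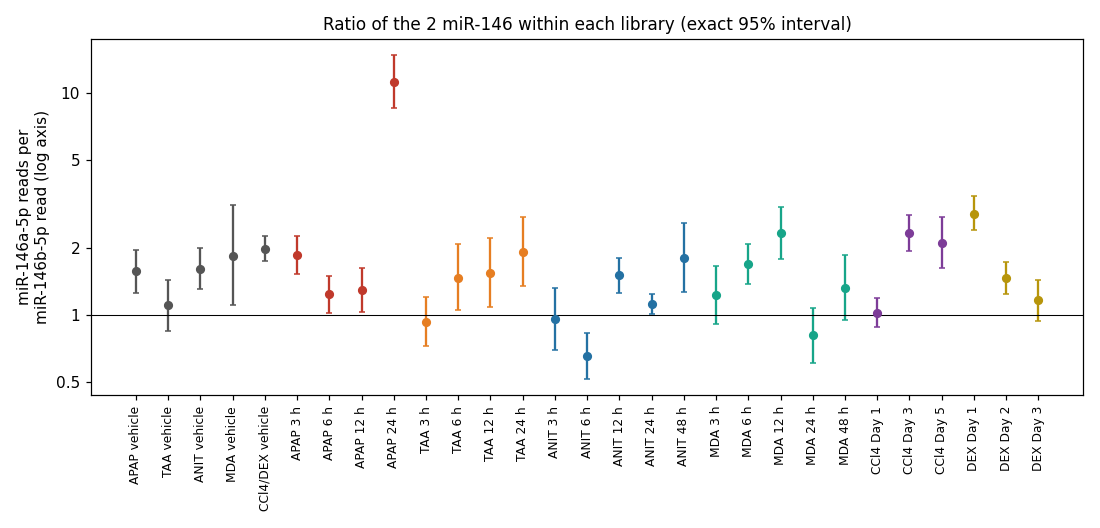
Reads of miR-146a-5p per read of miR-146b-5p (y axis, log scale) in each of the 29 libraries (x axis), with exact 95% intervals. APAP at 24 h stands at 11.1, and the other 28 libraries lie between 0.657 and 2.86.

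Blood cell miRNAs give the setting for these values. In the fit of all libraries, 3 of 8 leukocyte miRNAs were lower in hepatocellular than in vehicle libraries, beside 16.8% of all miRNAs: miR-142-3p (log2 difference -1.76), the lymphocyte miRNA miR-150-5p (-1.93) and the myeloid miR-223-3p (-1.71), and the list's median was -0.63 beside -0.19 for all miRNAs. The red cell list fell in 4 of 4 tested, among them miR-451-5p (-1.67) and miR-486 (-1.54), and the platelet and endothelial list in 3 of 5, with miR-126a-3p at -0.96. With the own vehicle as a block the calls were 0 of 8 leukocyte, 1 of 4 red cell and 0 of 5 platelet and endothelial miRNAs, beside 1.86% of all. None of these lists had a member called between DEX and vehicle, where 2.48% of all miRNAs were called. Directly against DEX, miR-223-3p (-2.51) and miR-223-5p (-2.55) were lower in the hepatocellular libraries, 2 of 8 leukocyte miRNAs, beside 10.6% of all. The median of the leukocyte list there was only -0.16, beside 0.12 for all miRNAs. In the same comparison 2 of 4 red cell miRNAs (median -1.41) and 2 of 5 platelet and endothelial miRNAs (median -0.41) were lower. The 2 tested miR-146 miRNAs were thus not called where 3 of 8 leukocyte miRNAs were, and a difference between them was not tested. In the fit of 24 h and Day 1 libraries 6 of 8 leukocyte miRNAs were lower than in vehicle, with a median of -3.32 (-0.47 over all miRNAs tested), beside -2.11 for miR-146b-5p and 0.05 for miR-146a-5p. There 38.9% of all miRNAs were called lower, on a spread that came mostly from the vehicle libraries.

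Of 13 other miRNAs linked to inflammation, 8 were tested. Between hepatocellular and vehicle libraries 2 were lower, let-7i-5p (log2 difference -1.19, adjusted p = 0.0151), known in human cholangiocytes to repress TLR4, and miR-203a-3p (-1.17, adjusted p = 0.0134), an epithelial miRNA, beside 16.8% of all miRNAs called lower. The count depended on the setting: 5 of 8 were lower with total counts (47.2% of all), 1 of 8 with the own vehicle as a block (1.86%), and of 7 tested with 24 h and Day 1 libraries 3 were higher (34.2%) and 1 lower (38.9%). Between DEX and vehicle none was called, beside 2.48% of all miRNAs. Between hepatocellular and DEX let-7i-5p alone was lower (-1.32, adjusted p = 0.0269), beside 10.6% of all miRNAs called lower. The median of the 8 was -0.68 against vehicle, beside -0.19 for all miRNAs tested, and 0.24 against DEX, beside 0.12.

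Over the 29 libraries the TMM-scaled log2 level of miR-146a-5p was most like those of miR-100-5p (Pearson r = 0.55), miR-342-3p (0.52) and miR-99b-5p (0.48) among 104 miRNAs. miR-146b-5p was most like let-7b-5p (0.72), miR-24-2-5p (0.71) and miR-140-5p (0.68). miR-155-5p was most like miR-503-5p (0.69), miR-351-5p (0.62) and let-7i-5p (0.62), though at so few reads this describes little more than which libraries held any. The 2 miR-146 miRNAs correlated with each other at r = 0.43, and at 0.69 without the APAP 24 h library. The libraries share vehicles, depth and scaling, so these coefficients describe the tables and carry no p-value.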

How the data were processed

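The authors deposited read counts per mature miRNA and library, and a normalized signal made by dividing counts by size factors (DESeq 1.28.0 according to the submitters' processing notes). Those counts were used for all results, and the deposited signal for alternatives. The sources used here name no aligner, counting tool or miRNA release. Shares and ratios have exact binomial 95% intervals. Ratios to vehicle used TMM within a model on miRNAs that reached 20 reads in 1 library, and log2 ratios a pseudocount of 0.5 read. TMM had first been computed on all listed miRNAs. It was changed after both sets of values were seen, to follow the earlier processing of these data, and the first version is kept as an alternative. Across libraries, edgeR 4.0.16 (R 4.3.3) fitted treatment as a factor with 7 levels, quasi-likelihood tests and Benjamini-Hochberg adjustment, on 161 miRNAs that reached 10 reads in 3 libraries. The code was tested on simulated data. DESeq2 1.42.0 and Python 3.11.15 with scipy 1.17.1 served the alternatives and exact tests. The miRNAs and lists were chosen with earlier results of these data known. Named miRNAs were the 3 members, their opposite arms, the 3 most alike by Pearson r (log2 CPM, prior count 2) and called list members. Depth ran from 14176 to 383330 reads, and a count of 0 allows up to 3 reads.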

Additional observations from a re-analysis of the deposited data

Results flagged for a closer look

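For miR-146b-5p, with TMM within each model, every TAA library lay below its own vehicle and every CCl4 and DEX library above. The mean log2 ratio was -1.29 in TAA (4 libraries, -2.87 to -0.10), 0.65 in CCl4 (3 libraries, 0.55 to 0.75) and 0.53 in DEX (3 libraries, 0.36 to 0.86). The difference between TAA and CCl4 was -1.94 and that between TAA and DEX -1.82. These pairs were picked because the ratios of their libraries do not overlap, so the difference was not tested. Which side of vehicle the CCl4 and DEX libraries lay on depended on the scaling. With total counts CCl4 Day 3 and Day 5 were at 0.587 and 0.608 of vehicle and DEX Day 2 at 0.998. With TMM over all libraries DEX Day 2 was at 0.990. With total counts the TAA ratios still did not overlap those of CCl4 and DEX, at 0.448, 0.184, 0.0815 and 0.0386 at 3, 6, 12 and 24 h. CCl4 and DEX share 1 vehicle library, which had the lowest share of miR-146b-5p among the vehicle libraries, and its part in the difference was not tested. Before division by vehicle the levels did overlap. With TMM over all libraries the scaled level was 1549 in TAA 3 h, above every CCl4 (1218 to 1537) and DEX library (1099 to 1490). TAA 6, 12 and 24 h lay below all of them, at 1083, 812 and 306. The TAA vehicle stood at 1717 and the shared vehicle at 1113. All 3 CCl4, all 3 DEX and 2 of 4 TAA libraries lay inside the range of the vehicle libraries, and 2 TAA libraries below it.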

How the results depend on the processing

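No paired analysis was possible by replicate number, because the numbered ANIT samples have 1 column per group. Matching by vehicle was possible, and is given as the own vehicle as a block. In place of 0 and 3 calls (higher and lower), miR-146a-5p had 0 and 11 with total counts (where 41.4% of all miRNAs were called lower, against 20.5%), 1 higher with TMM over all libraries and with the authors' signal, 1 lower against all 5 vehicles, and 2 higher and 1 lower with TMM on all listed miRNAs. In place of 1 and 3, miR-146b-5p had 0 and 8 with total counts, and 3, 2 and 2 higher with TMM over all libraries, the authors' signal and TMM on all listed miRNAs. For TMM over all libraries, the authors' signal and TMM on all listed miRNAs the share over all miRNAs is not given here. Those counts are therefore a description only. In place of 3 lower, miR-155-5p had 5 with total counts and 0 against all 5 vehicles. In the fits, hepatocellular against vehicle was -1.39 for miR-146a-5p and -1.40 for miR-146b-5p with total counts, and 0.051 and -2.11 with 24 h and Day 1 libraries only, which also gave -1.81 for miR-146b-5p against DEX. DEX against vehicle turned positive for miR-146a-5p with RLE factors (0.16), DESeq2 (0.15), no read minimum (0.077), 20 reads in 3 libraries (0.035) and 24 h and Day 1 only (0.59), and for miR-146b-5p with the own vehicle as a block (0.15), all uncalled. For miR-155-5p with no read minimum, hepatocellular against vehicle was -2.84 with total counts and 0.14 with the own vehicle as a block, and against DEX -0.56 with total counts. Where the result moved, the cause was not tested.

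Leaving out each library in turn moved hepatocellular against vehicle from -0.36 to -0.09 (miR-146a-5p), -0.54 to -0.15 (miR-146b-5p) and -2.31 to -1.46 (miR-155-5p, adjusted p from 0.0159 to 0.186). It moved DEX against vehicle from -0.39 to 0.20, -0.33 to -0.07 and -2.50 to -1.72, and hepatocellular against DEX from -0.44 to 0.13, -0.36 to 0.036 and -0.27 to 0.72; against DEX the sign turned without DEX Day 1 (miR-146a-5p), APAP 24 h (miR-146b-5p), and APAP 3 h or TAA 3 h (miR-155-5p). Without APAP 24 h the log2 ratio of the 2 miR-146 differed by -0.16 from vehicle and -0.25 from DEX.

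Of all miRNAs, 35 were called higher and 27 lower between hepatocellular and vehicle, against 10 and 76 with total counts, 4 and 3 with the own vehicle as a block, 58 lower with 24 h and Day 1 only, and 22 to 42 and 17 to 35 without 1 library. Between hepatocellular and DEX 22 and 17 became 5 and 45, 0 and 0, 38 and 45, and 0 to 30 and 5 to 23. Between DEX and vehicle 3 and 1 became 0 and 0 with total counts, no read minimum, 24 h and Day 1 only and the own vehicle as a block, 0 lower with RLE factors, 6 and 3 with DESeq2, and 0 to 3 and 0 to 2 without 1 library. The exact permutation tests of scaled levels called none of 9 comparisons after adjustment. There were 56 rearrangements for DEX against vehicle and 165 for hepatocellular against DEX. With so few, 1 such comparison alone could not pass adjustment over 9 tests, so no conclusion is drawn from the lack of calls.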
